A study of Mus musculus with 10 samples.

Results

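Interferon-stimulated genes are the genes that cells switch on when an interferon binds its receptor, and 41 of them were followed here through the lungs of house dust mite (HDM)-sensitized mice. The genes were chosen by name as known targets of interferon, with earlier results of these data in view, and every row of the count files whose gene symbol equalled a listed name was taken. Of the 41 genes, 37 were found among the 23930 targets, while Ifit3, Isg15, Irgm2 and Iigp1 were not analysed here. All 37 had 30 or more counts in total in each comparison and so passed the filter on low counts.

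The lung RNA came from wild-type female BALB/c mice, bought at 8 to 9 weeks of age, in 3 groups. The HDM+Nafamostat group (n = 3) received HDM extract into the nose and, 30 min before each instillation, 20 mg/kg nafamostat, an inhibitor of serine proteases, into the peritoneum in 3% acetic acid in PBS. The HDM group (n = 3) received HDM extract, 10 µg in 30 µl of PBS 2 times per week, and the PBS group (n = 4) received PBS only. The labels give 24 h before euthanasia in all groups, and the methods place the lung function measurement 24 h after the last HDM instillation. The methods give 3 weeks of instillations and the figure legends 6 weeks, the labels give the same HDM amounts in mg and ml, and the labels do not say which mice without nafamostat were given its vehicle. The methods speak of lobes from separate experiments and of 2 experiments in all, and the labels do not say which library came from which, so that an effect of the experiment could not be tested and p-values measure the spread between these libraries. Libraries held 8053532 to 9666354 counts in HDM+Nafamostat lungs, 7105946 to 9354416 in HDM lungs and 5901279 to 7353792 in PBS lungs. The assay reads 1 amplicon per gene, so that levels, given as CPM, the counts scaled to a library of 1000000, are compared within a gene and not between genes.

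Type I and type III interferons signal through a factor that includes STAT2 and IRF9 and binds the interferon-stimulated response element (ISRE) in target promoters. Interferon gamma, the type II interferon, acts mainly at the gamma-activated sequence (GAS). Among the targets, the oligoadenylate synthetases, the MX proteins, the IFIT proteins and viperin are known chiefly as type I and type III targets, whereas guanylate-binding proteins, immunity-related GTPases and IRF1 also respond strongly to interferon gamma. In the lung, epithelial cells, macrophages, monocytes and plasmacytoid dendritic cells are known sources of or responders to interferons.

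The promoters of the genes show where these factors could bind, and are shown for genes on which the results below turn. The RefSeq promoter table (GRCm38.p6) held an entry for 28 of the 37 genes, and the 250 bases before the annotated start were searched. The ISRE core, GAAA and GAAA parted by any 2 bases, was searched on both strands (it reads TTTC and TTTC on the other), and TTCNNNGAA, the GAS core, is its own reverse complement. Matches of the motifs may share bases. The ISRE core was present in 13 of 28 promoters (46.4%), and in 3.46% of the 27025 genes in the table. The GAS core was present in 8 of 28 (28.6%), and in 8.13% of all. The first 4 windows below belong to genes that were at least 2-fold high in HDM replicate 3 (described further on), the next 3 to GTPase genes that were less than 2-fold high in it, and the last to Irf1, with its GAS core. Each window has 40 bases, read 5′ to 3′ on the strand of the gene. The ISRE core is in capitals, or for Irf1 the GAS core. The Igtp window also holds a GAS core, 45 to 37 bases before the start, which is left in lower case.
Ifit1 (chr19:34640770-34640809, + strand): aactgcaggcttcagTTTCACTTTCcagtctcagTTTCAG
Oas1a (chr5:120907526-120907565, - strand): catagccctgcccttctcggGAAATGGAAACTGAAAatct
Oas3 (chr5:120777710-120777749, - strand): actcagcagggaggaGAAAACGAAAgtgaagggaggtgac
Rsad2 (chr12:26456548-26456587, - strand): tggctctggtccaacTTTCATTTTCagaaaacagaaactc
Gbp2 (chr3:142620589-142620628, + strand): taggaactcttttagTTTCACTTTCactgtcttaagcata
Igtp (chr11:58199507-58199546, + strand): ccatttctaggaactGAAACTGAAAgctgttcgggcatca
Irgm1 (chr11:48871426-48871465, - strand): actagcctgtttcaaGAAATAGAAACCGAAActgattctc
Irf1 (chr11:53769909-53769948, + strand): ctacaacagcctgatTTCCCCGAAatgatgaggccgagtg
The ISRE core was present in 6 of 6 GTPase promoters, and in 4 of the 7 promoters in the table whose genes were at least 2-fold high in HDM replicate 3 (57.1%), against 9 of the 21 other promoters (42.9%). These matches describe the sequence and do not show that a factor was bound.

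Whether HDM sensitization changed the interferon-stimulated genes was asked in the comparison of HDM with PBS lungs. By edgeR's quasi-likelihood test with Benjamini-Hochberg adjustment over 14608 genes, at an adjusted p under 0.05, 11 of the 37 genes (29.7%) were higher in HDM lungs, where 15.3% of all genes were called higher. Only Ifit2 and Cmpk2 among the 37 (5.41%) were called lower, where 14.2% of all genes were called lower. The higher genes were Irf7, Irf9, Dhx58, Zbp1, Oas1a, Oas2, Oasl1, Mx1, Igtp, Bst2 and Parp9. The median log2 fold change of the 37 was 0.30, and that of all genes tested was 0.02. At a change of at least 2-fold, 6 genes were called higher (16.2%, against 7.28% of all genes) and 1 lower (2.70%, against 4.10%). The libraries did not overlap for 11 genes that were higher (29.7%, against 19.3% of all genes) and 2 that were lower (5.41%, against 17.2%).

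These counts rested in large part on HDM replicate 3. Without it, 5 of the 37 genes (13.5%) were called higher, near the 11.9% of all 13887 genes. They were Irf7, Zbp1, Oas1a, Mx1 and Parp9, and Irf9, Dhx58, Oas2, Oasl1, Igtp and Bst2 lost their call. Ifit2 and Cmpk2 remained lower (5.41%, against 10.3% of all genes). The median log2 fold change of the 37 genes was then -0.02, and that of all genes -0.02, with 18 genes above 0 and 19 below. The libraries of the called genes are therefore given one by one, and the calls of HDM against PBS with and without that replicate.

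**Figure D1:**
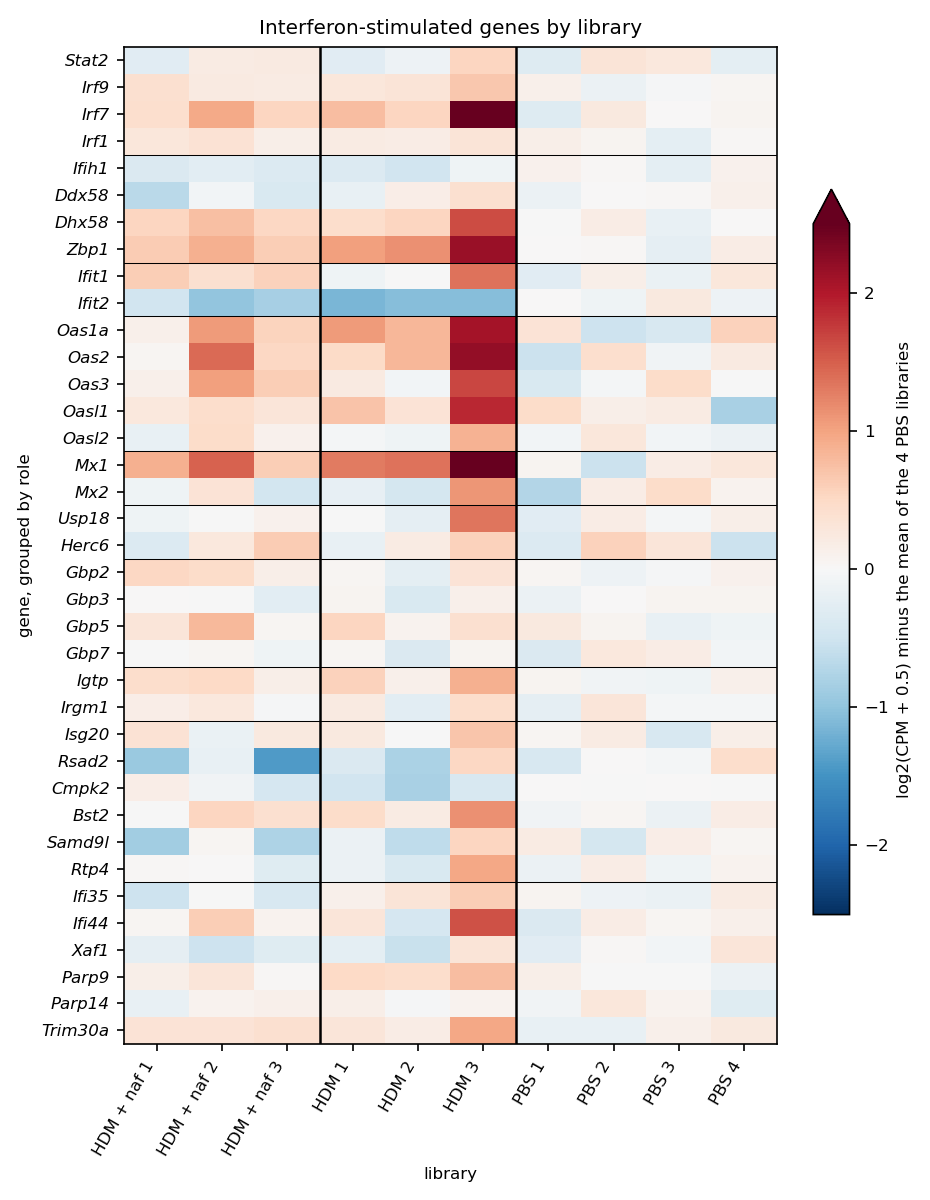
Level of the 37 interferon-stimulated genes (rows, grouped by role) in each of the 10 libraries (columns), as log2(CPM + 0.5) minus the mean of the 4 PBS libraries; HDM + naf stands for HDM+Nafamostat. The column of HDM replicate 3 is red in most rows, while Ifit2 is blue in all HDM and HDM+Nafamostat columns.

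HDM replicate 3 was above the mean of the other HDM libraries in 37 of 37 genes, and it was the highest of all 10 libraries in 28 of them. The shares of all genes for these counts were not taken. HDM replicate 3 also had counts in the most targets, 18015, against 15664 to 17612 in the other libraries. Its gap, its log2 CPM minus the mean of the other libraries of its group, had a median of 0.73 over the 37 genes and of 0.02 over 15213 genes. The gap was at least 1 (2-fold) in 14 of the 37 genes (37.8%), and in 9.07% of all genes. In the other 9 libraries the median gap of the 37 genes lay between -0.50 and 0.22, and a gap of at least 1 occurred in 2 genes of HDM+Nafamostat replicate 2 and in none of the 37 in the remaining 8 libraries. The gaps of HDM replicates 1 and 2, with medians of -0.28 and -0.50, were taken against means that include replicate 3. They are therefore not independent of it. All gaps describe libraries and were not tested.

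The gap was unequal between families. The 5 oligoadenylate synthetases and relatives had a median gap of 1.39, with 4 of the 5 at 1 or more, and Mx1 and Mx2 had gaps of 1.50 and 1.54. Irf7 had the greatest gap, 1.89, followed by Ifi44 with 1.67, Oas3 with 1.63 and Oas2 with 1.56. Usp18, Ifit1, Oasl1, Rtp4, Dhx58, Oas1a, Rsad2 and Zbp1 lay between 1.46 and 1.08, and Oasl2 (0.95) and Samd9l (0.94) lay just under 1. The 6 guanylate-binding proteins and immunity-related GTPases had a median gap of 0.36, and 0 of the 6 reached 1. The smallest gaps were those of Parp14 (0.04), Ifit2 (0.04), Gbp5 (0.08) and Irf1 (0.13).

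**Figure D2:**
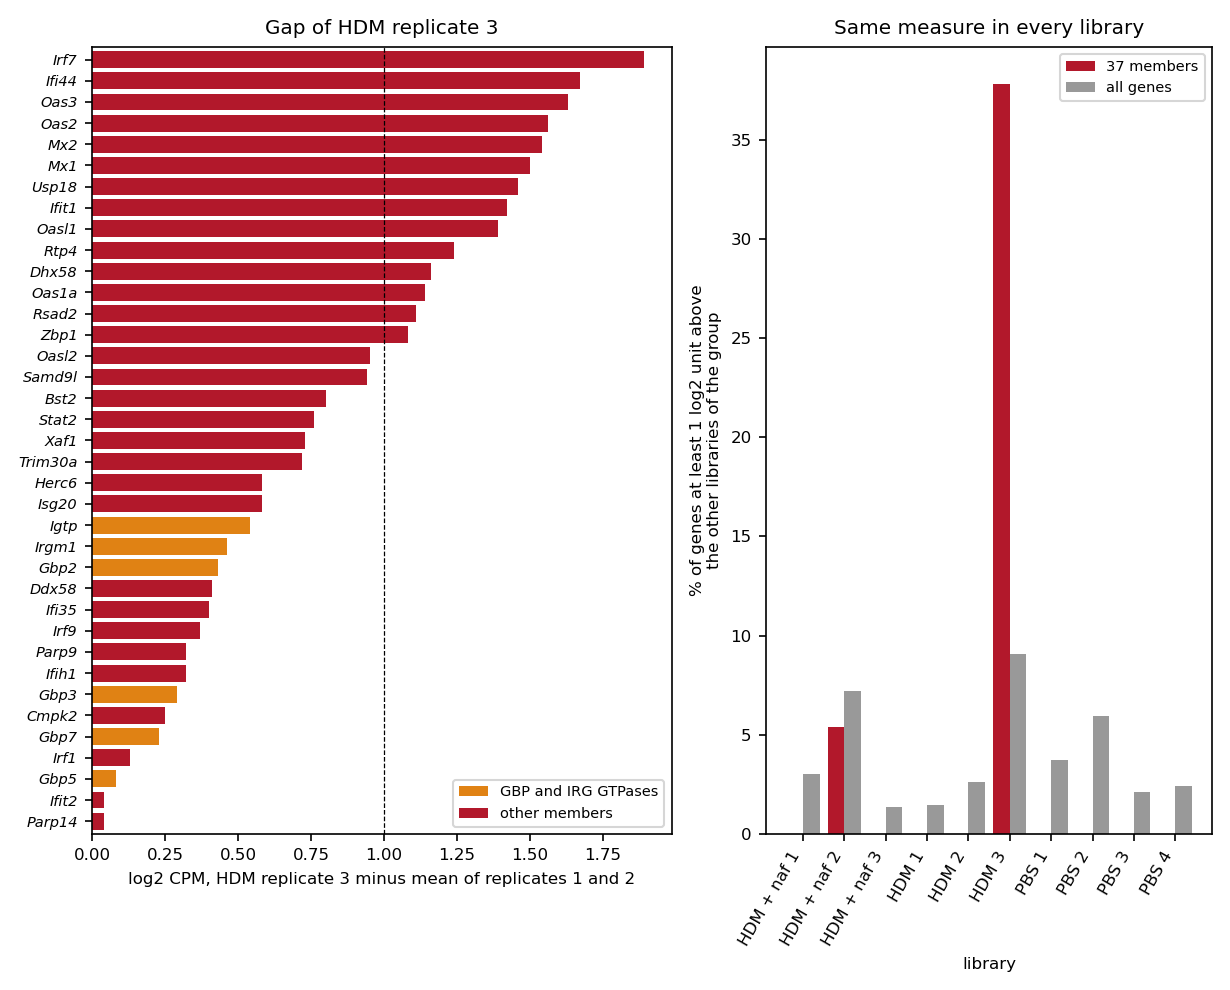
Left, gap of HDM replicate 3 in each of the 37 genes (log2 CPM minus the mean of HDM replicates 1 and 2; the dashed line marks 2-fold); right, percentage of the 37 genes and of all 15213 genes with a gap of at least 1 in each library. In HDM replicate 3 the bar of the interferon-stimulated genes is at 37.8% and that of all genes at 9.07%, and all 6 GTPase genes lie left of the dashed line.

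HDM replicate 3 stood apart in some other measures as well. Olfactory receptor genes, which the lung is not known for, summed to 1647 CPM in HDM replicate 3, against 28.3 to 619 CPM in the other libraries, and leaving out the olfactory, vomeronasal and trace amine receptors lowered the background of genes with a gap of at least 1 to 6.90%. HDM+Nafamostat replicate 2 and PBS replicate 2, with olfactory sums of 416 and 619 CPM, had median gaps of 0.22 and 0.05 in the 37 genes. The 14 interferon genes on the panel summed to 25.4 CPM in HDM replicate 3, against 0.128 to 7.26 CPM in the other 9 libraries. PBS replicate 2, HDM+Nafamostat replicate 2 and PBS replicate 1 had interferon sums of 7.26, 6.38 and 5.23 CPM and olfactory sums of 619, 416 and 257 CPM. HDM replicates 1 and 2 had interferon sums of 4.63 and 2.83 CPM and olfactory sums of 137 and 250 CPM. Libraries with olfactory sums of 28.3 to 65 CPM had interferon sums of 0.128 to 2.05 CPM. Whether both sums share a source was not tested. Of the monocyte and macrophage markers, most of whose sum is Lyz2, the 9 others summed to 932 CPM in HDM replicate 3, against 1152 and 899 CPM in HDM replicates 1 and 2, and HDM replicate 3 was the highest HDM library in 2 of the 9 and the lowest in 4. Of the 6 plasmacytoid dendritic cell markers other than Bst2 and Irf8, which are interferon-responsive or shared, HDM replicate 3 was the highest HDM library in 4 and the lowest in 2. The 6 summed to 125 CPM in HDM replicate 3, against 118 and 139 CPM in HDM replicates 1 and 2. Tcf4, which made up most of the sum, had 79.7 CPM in HDM replicate 3, against 84.9 and 102 CPM. Without Tcf4 the other 5 summed to 45.8 CPM in HDM replicate 3, against 33.1 and 36.9 CPM in HDM replicates 1 and 2. Of these 5, Siglech was lowest in HDM replicate 3, at 7.68 CPM against 10.1 and 9.61 CPM. The T and NK cell markers summed to 518 CPM in HDM replicate 3, against 451 and 376 CPM in HDM replicates 1 and 2. Their sums were 330 to 441 CPM in HDM+Nafamostat lungs and 327 to 451 CPM in PBS lungs. Not every marker was highest in HDM replicate 3, since Cd3e had 40.3 CPM in it, against 55.3 and 25.3 CPM. The B cell markers summed to 213 CPM in HDM replicate 3, against 204 and 217 CPM. The part of these measures in the gap was not tested.

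Among the transcription factors, Irf7, the factor that amplifies the interferon alpha genes (chr7:141262706-141266481, GRCm38), had 49.6, 71.5 and 54.4 CPM in HDM+Nafamostat lungs, 63.6, 53.9 and 218 CPM in HDM lungs and 29.4, 44.3, 37.4 and 38.8 CPM in PBS lungs. The HDM libraries and the HDM+Nafamostat libraries were all above the PBS libraries, and HDM replicate 3 was far above every other library. Irf7 was higher in HDM than in PBS lungs by 1.55 on the log2 scale (SE 0.35, adjusted p = 0.0038), and by 0.63 without HDM replicate 3 (adjusted p = 0.02). In HDM+Nafamostat lungs Irf7 was higher than in PBS lungs by 0.64 (SE 0.17, adjusted p = 0.0181), a call that was lost without HDM+Nafamostat replicate 2 (0.47, adjusted p = 0.135), without PBS replicate 1 (adjusted p = 0.0575) and in a joint fit of all groups (adjusted p = 0.21).

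Irf9, the DNA-binding subunit of the type I interferon factor, had 55.8, 49.5 and 48.9 CPM in HDM+Nafamostat lungs, 51.6, 53.3 and 68 CPM in HDM lungs and 46.4, 38.1, 41.4 and 44 CPM in PBS lungs. Its 3 HDM libraries lay above the 4 PBS libraries, with a log2 fold change of 0.42 (SE 0.15, adjusted p = 0.0401) that was not called without HDM replicate 3 (0.29, adjusted p = 0.221). The call passed in 7 of 14 alternatives and was also lost without HDM replicate 2, without PBS replicate 2 or 3, with library totals, with no filter and with the replicate block. Stat2, the partner of Irf9, had 38.5, 54.3 and 55.2 CPM in HDM+Nafamostat lungs, 38.6, 42.6 and 68.7 CPM in HDM lungs and 37.4, 58.5, 56.1 and 39.3 CPM in PBS lungs. The groups overlapped, with a difference of 0.04 between HDM and PBS lungs (95% interval -0.41 to 0.49), and of -0.26 without HDM replicate 3. Irf1, which acts at many interferon gamma targets, had 228, 241 and 208 CPM in HDM+Nafamostat lungs, 216, 212 and 234 CPM in HDM lungs and 207, 196, 158 and 190 CPM in PBS lungs. All HDM and HDM+Nafamostat libraries of Irf1 were above the PBS libraries, but the log2 fold change of HDM over PBS, 0.22, did not pass the test (adjusted p = 0.23), and was 0.17 without HDM replicate 3.

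The sensors of nucleic acids were split. Zbp1, a sensor of Z-form nucleic acids that can start cell death (chr2:173206612-173218923), had 24.3, 29.4 and 24 CPM in HDM+Nafamostat lungs, 32.3, 34.9 and 71.3 CPM in HDM lungs and 15.7, 16, 13.2 and 17.7 CPM in PBS lungs. No library of 1 group overlapped another group. Zbp1 was higher in HDM than in PBS lungs by 1.54 (SE 0.24, adjusted p = 2.27e-04), by 1.09 without HDM replicate 3 (adjusted p = 8.02e-04), and higher in HDM+Nafamostat than in PBS lungs by 0.73 (SE 0.18, adjusted p = 0.0117), the last of which was not called without HDM+Nafamostat replicate 2 (adjusted p = 0.0712).

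Dhx58, which encodes LGP2, a regulator of the RNA helicase sensors, had 15.2, 17.8 and 15.1 CPM in HDM+Nafamostat lungs, 14.2, 15.3 and 33.2 CPM in HDM lungs and 10.3, 11.8, 9.09 and 10.4 CPM in PBS lungs. HDM replicates 1 and 2 were at the level of the HDM+Nafamostat libraries. The change of 0.99 in HDM over PBS lungs (SE 0.27, adjusted p = 0.0113) was 0.49 without HDM replicate 3 (adjusted p = 0.154), and HDM+Nafamostat lungs were higher than PBS lungs by 0.63 (SE 0.20, adjusted p = 0.0461). The call in HDM+Nafamostat over PBS lungs passed in 2 of 14 alternatives, with adjusted p of 0.0463 to 0.166, and was lost whichever library was left out. The helicase sensors themselves, Ifih1 (MDA5) and Ddx58 (RIG-I), were called in no comparison, with log2 fold changes of -0.33 (95% interval -0.65 to 0.00) and 0.13 (-0.22 to 0.47) in HDM over PBS lungs, and of -0.44 and -0.02 without HDM replicate 3.

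The IFIT proteins, which bind viral RNA and restrain its translation, moved apart. Ifit2 had 23.6, 16.5 and 18.4 CPM in HDM+Nafamostat lungs, 14.8, 15.6 and 15.6 CPM in HDM lungs and 33.2, 30.8, 39.1 and 30.1 CPM in PBS lungs. HDM replicate 3 did not stand out, and every HDM and HDM+Nafamostat library was below every PBS library. Ifit2 was lower in HDM than in PBS lungs, with a log2 fold change of -1.14 (SE 0.17, adjusted p = 1.31e-04) that was -1.15 without HDM replicate 3, and lower in HDM+Nafamostat than in PBS lungs (-0.78, SE 0.18, adjusted p = 0.00743, and 0.0529 without HDM+Nafamostat replicate 2). Its neighbour Ifit1 in the cluster on chromosome 19 had 71.1, 60.9 and 69.1 CPM in HDM+Nafamostat lungs, 42.8, 45.4 and 118 CPM in HDM lungs and 37.9, 51.1, 41.2 and 56 CPM in PBS lungs. HDM replicates 1 and 2 of Ifit1 lay within the PBS range and replicate 3 above it. Ifit1 was higher in HDM+Nafamostat than in PBS lungs by 0.52 (SE 0.16, adjusted p = 0.0338), while HDM over PBS gave 0.54 (SE 0.28, adjusted p = 0.164), and -0.10 without HDM replicate 3. The call in HDM+Nafamostat over PBS lungs passed in 8 of 14 alternatives (adjusted p 0.00935 to 0.186) and was lost without any 1 of the HDM+Nafamostat libraries, without PBS replicate 1 or 3 and in a joint fit of all groups.

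The oligoadenylate synthetases make the messenger that activates RNase L, and their genes lie in 2 neighbourhoods of chromosome 5. Oas1a had 15.8, 30.7 and 21.4 CPM in HDM+Nafamostat lungs, 30.9, 26 and 62.9 CPM in HDM lungs and 18.5, 9.88, 10.8 and 21.8 CPM in PBS lungs. Oas2 had 8.64, 23 and 12.2 CPM in HDM+Nafamostat lungs, 11.8, 15.3 and 40 CPM in HDM lungs and 5.56, 11.3, 7.81 and 9.78 CPM in PBS lungs. For both genes the HDM libraries lay above the PBS libraries, and the HDM+Nafamostat libraries reached from the PBS to the HDM range, with replicate 2 the highest. Oas1a was higher in HDM than in PBS lungs by 1.38 (SE 0.31, adjusted p = 0.00318), and by 0.90 without HDM replicate 3 (adjusted p = 0.028). Oas2 was higher by 1.35 (SE 0.35, adjusted p = 0.00934), a call that was lost without HDM replicate 3 (0.63, adjusted p = 0.14). The reads of Oas1a may be shared with near-identical copies such as Oas1g, since the placing of the amplicons is not given in the sources used here, and the same holds for the related Gbp, Ifit and Trim30 genes.

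Oas3, the largest of these enzymes, had 6.48, 12.5 and 9.35 CPM in HDM+Nafamostat lungs, 6.94, 5.65 and 20 CPM in HDM lungs and 4.41, 5.66, 8.32 and 5.83 CPM in PBS lungs. Replicates 1 and 2 of HDM lay within the PBS range, and the difference of 0.81 between HDM and PBS lungs (adjusted p = 0.122) was 0.03 without replicate 3. Oasl1, which in mice restrains the translation of Irf7, had 5.21, 5.94 and 5.36 CPM in HDM+Nafamostat lungs, 7.29, 5.51 and 17.1 CPM in HDM lungs and 6.05, 4.79, 4.99 and 2.21 CPM in PBS lungs. The groups overlapped. Oasl1 was called higher in HDM than in PBS lungs (1.12, SE 0.39, adjusted p = 0.0399), and not without HDM replicate 3 (0.49, adjusted p = 0.404). The call passed in 8 of 14 alternatives and was also lost without PBS replicate 2, 3 or 4, with library totals and with the replicate block. Oasl2 was called in no comparison.

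The MX proteins are dynamin-like GTPases, and most inbred mouse strains, BALB/c among them, carry a defective Mx1 allele. Mx1 was read at 19, 35 and 18 counts in HDM+Nafamostat lungs, 29, 25 and 77 counts in HDM lungs and 7, 4, 10 and 9 counts in PBS lungs. These are 2.41, 3.85 and 1.89 CPM in HDM+Nafamostat lungs, 3.35, 3.53 and 10.2 CPM in HDM lungs and 1.14, 0.581, 1.28 and 1.42 CPM in PBS lungs. The PBS libraries were the lowest throughout. Mx1 was higher in HDM than in PBS lungs by 2.33 (SE 0.50, adjusted p = 0.00258), and by 1.61 without HDM replicate 3 (adjusted p = 0.0403). Mx2 was also low, at 8 to 45 counts, and was called in no comparison, with HDM replicates 1 and 2 within the PBS range.

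**Figure D3:**
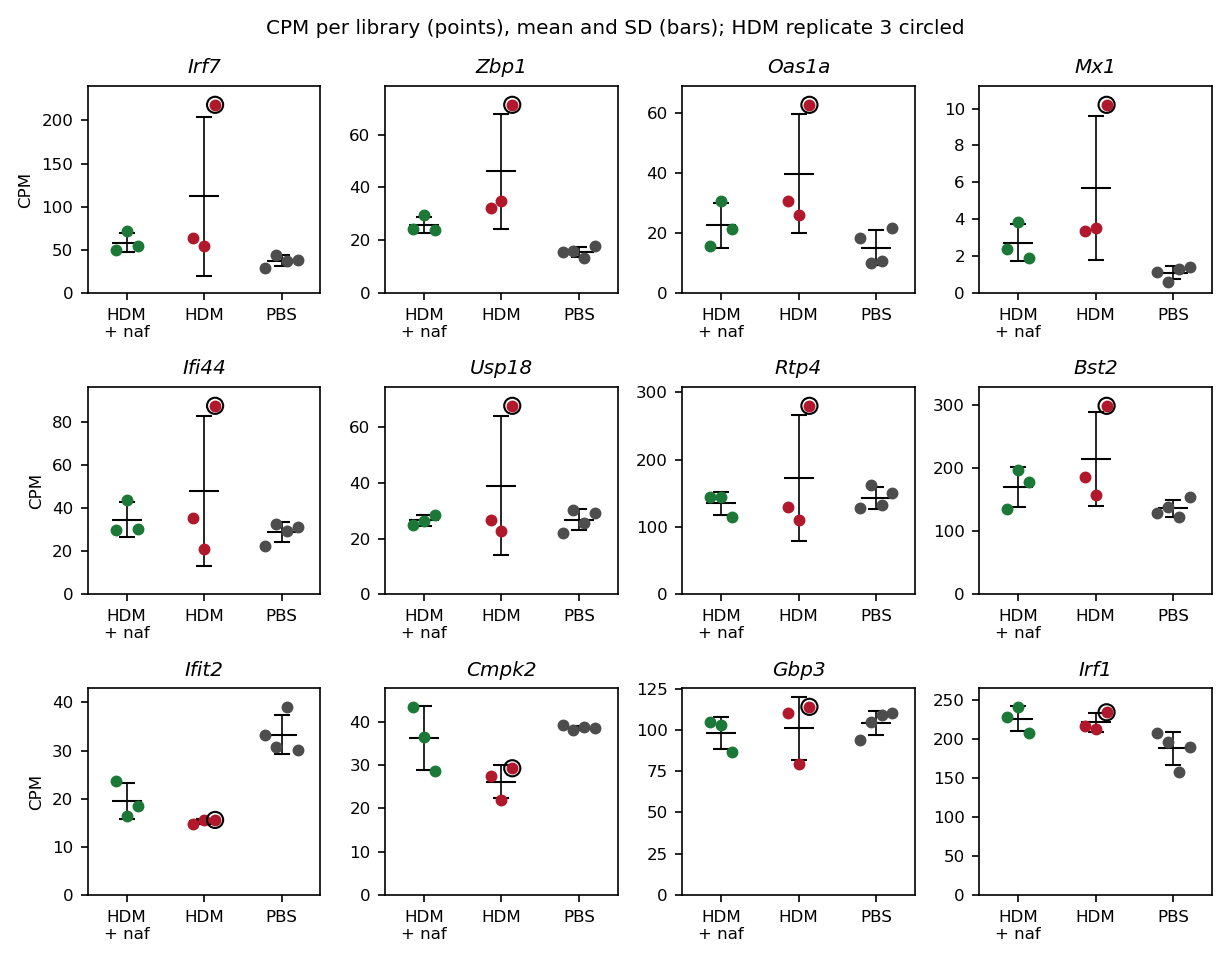
CPM of 12 interferon-stimulated genes in each library, with the mean and SD of HDM+Nafamostat (n = 3), HDM (n = 3) and PBS (n = 4) lungs; each panel has its own axis starting at 0, and HDM replicate 3 is circled. For Irf7, Ifi44, Usp18 and Rtp4 the circled point lies far above all others, while for Ifit2 and Cmpk2 the 3 HDM libraries lie together below the PBS libraries.

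The genes around ISG15, a ubiquitin-like protein, were not called in any comparison. Usp18, which removes ISG15 and dampens the type I interferon receptor, had 24.8 to 28.6 CPM in HDM+Nafamostat lungs, 26.5, 22.8 and 67.8 CPM in HDM lungs and 21.9 to 30.4 CPM in PBS lungs. Its difference between HDM and PBS lungs was 0.52 with all libraries and -0.14 without HDM replicate 3. Herc6, which attaches ISG15 in mice, ranged from 2.52 to 6.3 CPM over the 10 libraries.

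Of the guanylate-binding proteins, GTPases that act on pathogen-containing vacuoles, Gbp2, Gbp3, Gbp5 and Gbp7 were called in no comparison, with log2 fold changes of -0.11 to 0.34 in HDM over PBS lungs, and of -0.19 to 0.31 without HDM replicate 3. Of the immunity-related GTPases, Igtp had 32.7, 34.1 and 26.3 CPM in HDM+Nafamostat lungs, 35.9, 26.2 and 44.8 CPM in HDM lungs and 25, 22.4, 22.2 and 26 CPM in PBS lungs. Its HDM libraries were above the PBS libraries, by a margin that was small in replicate 2, and the annotated gene overlaps Irgm2, with which reads may be shared. Igtp was higher in HDM lungs by 0.56 (SE 0.18, adjusted p = 0.0305), and was not called without HDM replicate 3 (0.36, adjusted p = 0.202). The call passed in 9 of 14 alternatives and was also lost without HDM replicate 1, without PBS replicate 2 or 3 and with library totals. Irgm1, a regulator of the other GTPases of its family, was called in no comparison (0.14, 95% interval -0.27 to 0.54, in HDM over PBS lungs, and -0.03 without HDM replicate 3).

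Among the other antiviral effectors, Bst2, which encodes tetherin and holds budding virus at the cell surface, had 135, 197 and 178 CPM in HDM+Nafamostat lungs, 186, 157 and 299 CPM in HDM lungs and 128, 139, 122 and 154 CPM in PBS lungs. Replicate 2 of HDM was just above the highest PBS library. Bst2 was higher in HDM than in PBS lungs by 0.64 (SE 0.18, adjusted p = 0.0155), and was not called without HDM replicate 3 (0.32, adjusted p = 0.145).

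Cmpk2, a mitochondrial nucleotide kinase, had 43.5, 36.5 and 28.7 CPM in HDM+Nafamostat lungs, 27.5, 21.9 and 29.3 CPM in HDM lungs and 39.2, 38.2, 38.9 and 38.5 CPM in PBS lungs. The PBS libraries of Cmpk2 lay close together and above all HDM libraries, and the HDM+Nafamostat libraries spread from the HDM range to above the PBS range. Cmpk2 was lower in HDM than in PBS lungs (-0.58, SE 0.15, adjusted p = 0.01), and by a like amount without HDM replicate 3 (-0.66, adjusted p = 0.0149). The call was lost without HDM replicate 2 (-0.47, adjusted p = 0.062). Rsad2, the gene of viperin and its neighbour on chromosome 12, had 7.24, 12.5 and 5.04 CPM in HDM+Nafamostat lungs, 11, 8.06 and 20.7 CPM in HDM lungs and 10.6, 14.4, 13.8 and 19.4 CPM in PBS lungs. Rsad2 was called in no comparison, and Cmpk2 had a gap of 0.25 in HDM replicate 3 where Rsad2 had 1.11.

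Isg20, an exonuclease, Samd9l, a restrictor of poxviruses, and Rtp4, a receptor transporter with antiviral activity, were not called in any comparison. Rtp4 had 110 to 129 CPM in HDM replicates 1 and 2 and 280 CPM in replicate 3, against 128 to 162 CPM in PBS lungs.

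In the remaining genes, Parp9, a macrodomain protein that promotes interferon signalling, had 81.9, 92.2 and 76.2 CPM in HDM+Nafamostat lungs, 105, 101 and 128 CPM in HDM lungs and 82.7, 74.2, 73.9 and 67.2 CPM in PBS lungs. The HDM libraries lay above all others, and HDM replicates 1 and 2 were close to each other. Parp9 was higher in HDM than in PBS lungs by 0.56 (SE 0.13, adjusted p = 0.00543), and by 0.44 without HDM replicate 3 (adjusted p = 0.0409). Ifi44 had 29.7, 43.8 and 30.3 CPM in HDM+Nafamostat lungs, 35.4, 21.1 and 87.4 CPM in HDM lungs and 22.2, 32.5, 29.3 and 31.2 CPM in PBS lungs. Its groups overlapped, and the difference of 0.71 between HDM and PBS lungs (adjusted p = 0.118) was -0.05 without HDM replicate 3. Trim30a, Ifi35, Xaf1 and Parp14 were called in no comparison, with log2 fold changes of 0.50, 0.35, -0.14 and 0.03 in HDM over PBS lungs, and of 0.22, 0.21, -0.43 and 0.02 without HDM replicate 3. Trim30a just missed a call in HDM over PBS lungs by edgeR's test (adjusted p = 0.0526). It was called higher there under several alternatives, among them DESeq2 (adjusted p = 0.0388) and the replicate block (0.0116), but not without HDM replicate 3 (0.384).

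Whether nafamostat altered the genes in sensitized lungs was asked in the comparison of HDM+Nafamostat with HDM lungs. By edgeR's quasi-likelihood test over 14413 genes, 0 of the 37 genes were called higher and 0 lower, where 0.951% and 1.97% of all genes were. At an unadjusted p under 0.05, 1 gene was higher (2.70%, against 9.99% of all genes) and 8 were lower (21.6%, against 11.4%). DESeq2 called 2 lower at an adjusted p under 0.05, for which the share of all genes was not taken. The libraries did not overlap for 1 higher gene, Ifit2 (2.70%, against 12.7% of all genes), and for 3 lower genes, Zbp1, Ifi35 and Parp9 (8.11%, against 12.8%). The median log2 fold change of the 37 genes was -0.20, with 30 below 0, and that of all genes was -0.01. Without HDM replicate 3 the median was 0.09, with 14 below 0, and that of all genes was 0.01.

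The genes nearest to a call were lower in HDM+Nafamostat lungs. Ifi35, a protein of the interferon response that is released from macrophages, had 34, 48.4 and 37 CPM in HDM+Nafamostat lungs, against 53.4, 61.1 and 75.2 CPM in HDM lungs (log2 fold change -0.67, SE 0.17, adjusted p = 0.0541). Zbp1 had a log2 fold change of -0.83 (SE 0.26, adjusted p = 0.0843), and Parp9 one of -0.42 (SE 0.14, adjusted p = 0.107). Without HDM replicate 3 these were -0.53 for Ifi35, -0.38 for Zbp1 and -0.30 for Parp9, with adjusted p of 0.172, 0.335 and 0.342. DESeq2 called Ifi35 and Zbp1 lower (adjusted p = 0.0117 and 0.0263), and edgeR with no filter on low counts called Ifi35, Zbp1, Irf7 and Oas1a lower (adjusted p = 0.00428, 8.11e-04, 3.58e-05 and 0.00208). Ifi35 was also called lower with edgeR's own filter, in the joint fit and without HDM+Nafamostat replicate 2 (adjusted p = 0.0377, 0.0484 and 0.0213). Irf7 had -0.93 (95% interval -1.77 to -0.10, adjusted p = 0.187) with all libraries and -0.01 without HDM replicate 3. Oas1a had -0.82 and Mx1 -1.06 with all libraries, and -0.33 and -0.34 without HDM replicate 3. Cmpk2 was the 1 gene with an unadjusted p under 0.05 and a positive change, 0.46 (SE 0.19, adjusted p = 0.175).

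**Figure D4:**
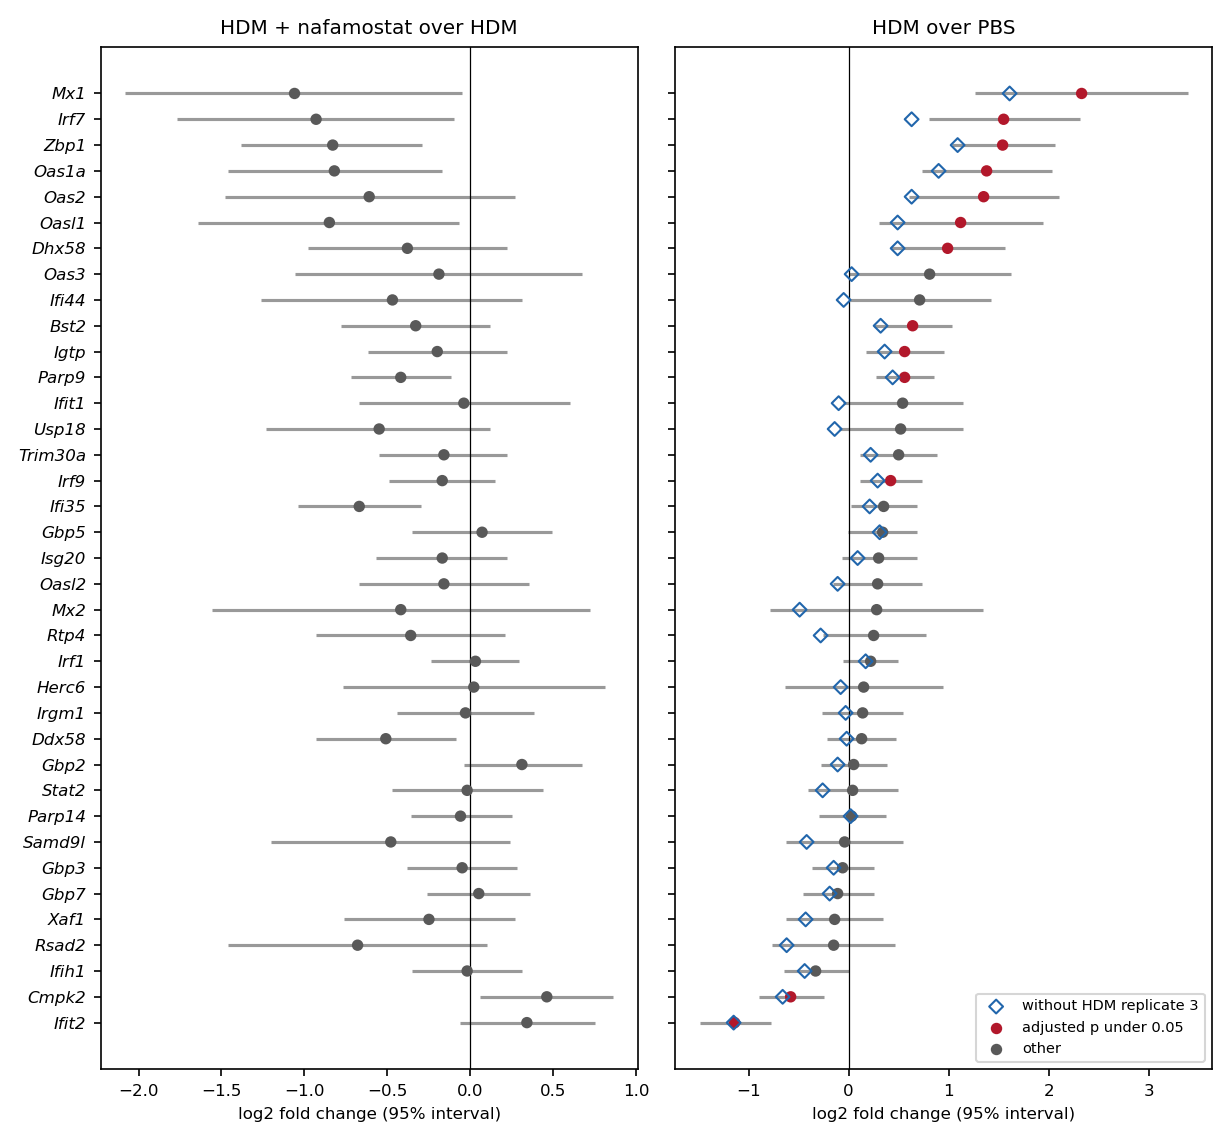
Log2 fold change with its 95% interval for each of the 37 genes, in HDM+Nafamostat over HDM lungs (left) and HDM over PBS lungs (right); red points passed an adjusted p of 0.05, and open diamonds give HDM over PBS without HDM replicate 3. On the left 0 points are red, and on the right most diamonds of the upper genes lie closer to 0 than their points.

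The HDM+Nafamostat lungs were also set against PBS lungs, a comparison free of HDM replicate 3 that shares the PBS libraries with the first one. Over 14079 genes, 4 of the 37 genes (10.8%) were called higher, Irf7, Dhx58, Zbp1 and Ifit1, where 8.73% of all genes were, and 1, Ifit2 (2.70%), was called lower, where 5.53% of all genes were. The libraries did not overlap for 10 higher genes (27.0%, against 13.8% of all genes) and 2 lower genes (5.41%, against 10.4%). The median log2 fold change was 0.16 for the 37 genes and -0.01 for all genes. The count of 4 was 0 without HDM+Nafamostat replicate 2, 2 without HDM+Nafamostat replicate 3, 1 without PBS replicate 1 and 2 without PBS replicate 3.

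The rest of the pathway was followed through lists of ligands, receptors, sensors, regulators and further targets. Of the 14 interferon genes on the panel, 6 passed the filter in HDM against PBS, 5 of them only through the counts of HDM replicate 3, so that Ifng alone was tested without it. With all libraries 0 of the 6 were called by edgeR's quasi-likelihood test, with 0 at an unadjusted p under 0.05 and 0 by DESeq2. Ifnb1, the gene of interferon beta, had 1, 4 and 0 counts in HDM+Nafamostat lungs, 2, 1 and 21 counts in HDM lungs and 1, 9, 0 and 0 counts in PBS lungs. Ifng, the gene of interferon gamma, had 14, 14 and 12 counts in HDM+Nafamostat lungs, 16, 12 and 31 counts in HDM lungs and 9, 5, 1 and 10 counts in PBS lungs (HDM over PBS 1.38, SE 0.73, adjusted p = 0.175). HDM replicate 3, which also had the highest olfactory sum, held the most counts of both. The HDM libraries of Ifng, at 1.7 to 4.11 CPM, lay above the PBS libraries, at 0.128 to 1.58 CPM.

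Of the 9 receptor chains and kinases, 2 (22.2%) were called higher in HDM than in PBS lungs, against 15.3% of all genes, and 3 (33.3%) without HDM replicate 3, against 11.9%. Ifngr2, a chain of the interferon gamma receptor, and Jak2, a kinase bound to it, were higher in HDM than in PBS lungs by 0.81 (SE 0.13, adjusted p = 2.98e-04) and 0.74 (SE 0.13, adjusted p = 5.16e-04), and by 0.83 and 0.75 without HDM replicate 3. Both were also higher in HDM+Nafamostat than in PBS lungs, by 0.57 and 0.73. Ifnar1, a chain of the type I receptor, was higher in HDM+Nafamostat than in PBS lungs (0.51, SE 0.17, adjusted p = 0.0496) and not called in HDM over PBS lungs (0.16). With all libraries, Ifnar2, Ifngr1, Ifnlr1 and Il10rb were called in no comparison.

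Of 17 genes of nucleic acid sensing outside the 37, 9 (52.9%) were higher in HDM than in PBS lungs, against 15.3% of all genes, and 8 (47.1%) without HDM replicate 3, against 11.9%. They included Aim2, a sensor of cytosolic DNA (2.40, SE 0.26), Tlr8, an endosomal RNA receptor (1.72, SE 0.19), Irf5 (1.50, SE 0.17) and Tmem173, the gene of STING (1.17, SE 0.15), and these were 2.33, 1.76, 1.50 and 1.18 without HDM replicate 3. Irf5, a factor downstream of the endosomal receptors, had 39.4, 60.1 and 46.8 CPM in HDM+Nafamostat lungs, against 86.4, 70.8 and 78.9 CPM in HDM lungs (-0.69, SE 0.16, adjusted p = 0.0383), and without HDM replicate 3 the adjusted p was 0.0744 at the same change of -0.69. The 8 negative regulators tested included Usp18, which is also among the 37 genes. Of the 8, 2 (25.0%) were called higher in HDM than in PBS lungs, and the same number without HDM replicate 3, against 15.3% and 11.9% of all genes. Ptpn2 and Ptpn6, phosphatases of JAK kinases and of immune receptors, were higher in HDM than in PBS lungs, by 0.94 and 0.85, and by 0.88 and 0.82 without HDM replicate 3. Ptpn2 was lower in HDM+Nafamostat than in HDM lungs (-0.63, adjusted p = 0.0466), and not called without HDM replicate 3 (-0.57, adjusted p = 0.138).

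A second list held 62 other interferon-stimulated genes, of which 56 passed the filter in HDM against PBS. HDM replicate 3 had a gap of at least 1 in 12 of the 56 (21.4%, against 9.07% of all genes) and above 0 in 52. The median gap was 0.44 over the 56 and 0.02 over all genes. In HDM over PBS lungs 22 (39.3%, against 15.3% of all genes) were called higher and 1 lower (1.79%, against 14.2%). Without HDM replicate 3, 9 (16.1%, against 11.9% of all genes) were called higher and 2 lower, where 10.3% of all genes were called lower. Slfn2, a schlafen protein of immune cells, was higher in HDM than in PBS lungs by 1.62 (SE 0.16, adjusted p = 3.67e-06), and by 1.45 without HDM replicate 3. Lap3, an aminopeptidase, had 188, 195 and 199 CPM in HDM+Nafamostat lungs, 211, 199 and 217 CPM in HDM lungs and 103, 107, 88 and 109 CPM in PBS lungs, with no library standing apart (1.02 in HDM over PBS lungs, SE 0.12, and 0.99 without HDM replicate 3).

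Cxcl10, a chemokine for activated T cells, had 13.3, 39.5 and 24 CPM in HDM+Nafamostat lungs, 12.5, 17.5 and 45.7 CPM in HDM lungs and 2.94, 4.07, 7.04 and 2.52 CPM in PBS lungs. It was higher than in PBS lungs by 2.60 in HDM+Nafamostat lungs (SE 0.35, adjusted p = 6.19e-05) and by 2.55 in HDM lungs (SE 0.41, adjusted p = 2.81e-04), the second of which was 1.81 without HDM replicate 3 (adjusted p = 0.00166). Between HDM+Nafamostat and HDM lungs its change was 0.03 with all libraries and 0.77 without HDM replicate 3 (adjusted p = 0.262). Between HDM+Nafamostat and HDM lungs, Ifi27l2a was the 1 gene of the second list to be called, and it was lower (1.79%, against 1.97% of all genes). Ifi27l2a had 54.9, 64 and 58.1 CPM in HDM+Nafamostat lungs, against 92.3, 90.2 and 318 CPM in HDM lungs (-1.50, SE 0.37, adjusted p = 0.0457). Every HDM library was above the HDM+Nafamostat libraries, and without HDM replicate 3 the change was -0.63 (adjusted p = 0.0492).

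In bulk lung RNA, fewer cells of a type and less RNA per cell cannot be told apart, and the cell markers moved with sensitization. Of all genes, 15.3% were called higher and 14.2% lower in HDM than in PBS lungs. Of the monocyte and macrophage markers, 9 of 10 were higher in HDM than in PBS lungs, and with Lyz2 they summed to 9403 to 11513 CPM in HDM+Nafamostat lungs, 11417 to 17827 CPM in HDM lungs and 6666 to 11240 CPM in PBS lungs. Neutrophil markers were higher in 7 of 8 and eosinophil markers in 5 of 5, while 3 of 7 endothelial markers were lower. Of the T and NK cell markers 3 of 13 were higher and 1 lower, and of the B cell markers 2 of 6 were higher and 1 lower. The neutrophil markers summed to 527 to 721 CPM in HDM+Nafamostat lungs, 944 to 1402 CPM in HDM lungs and 107 to 216 CPM in PBS lungs, with HDM replicate 3 the highest through S100a8 and S100a9. Without these genes the other 6 summed to 598 CPM in HDM replicate 3, against 695 and 659 CPM in HDM replicates 1 and 2. Markers of lung tissue were abundant in every library, at 53880 to 78772 CPM summed over 8 genes, of which 4 (Sftpb, Scgb1a1, Ager and Cdh5) were lower and 1 (Sftpa1) higher in HDM than in PBS lungs. Markers of liver, a tissue that was not sampled, were higher in HDM than in PBS lungs in 10 of 13, and summed to at most 207 CPM. The part of these markers in the changes of the interferon-stimulated genes was not tested.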

How the data were processed

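RNA of 10 mouse lung samples was amplified with an Ion AmpliSeq mouse transcriptome panel and read on an Ion S5 XL instrument, as the methods state. The deposited files hold raw read counts per amplicon, made by the authors on genome build mm10; the methods name the Torrent Suite 5.10.1, and aligner and counter settings are not given in the sources used here. Gene symbols that a spreadsheet had changed (27) were restored from the target names. Gene positions came from GENCODE on GRCm38, the assembly of mm10.

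Groups were taken from the treatment labels. Pairs of groups were tested with edgeR 4.0.16 in R 4.3.3, using only the libraries of the pair, for targets with at least 30 counts summed over the comparison, with TMM scaling, the quasi-likelihood F test and Benjamini-Hochberg adjustment over all targets tested. Calls were made below an adjusted p of 0.05. CPM used TMM factors over all 10 libraries, and gaps used log2 CPM with a prior count of 2. The scripts were tested on simulated data. DESeq2 1.42.0, other scalings, other filters, a joint fit, a block by replicate number and the omission of each library were tried as alternatives. The chi-square per gene between replicates was 7.87 to 23.7, so that libraries differed by more than counting error.

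The genes and lists were chosen with earlier results of these data known. Genes are described library by library if they were called in any comparison, are transcription factors of interferon signalling or had 1 of the 4 greatest gaps in HDM replicate 3; Usp18, Rtp4, Rsad2, Ifi35, Ifi27l2a and Ifnb1 were added after their values were seen. Of each list, up to 6 called genes with the smallest p could be named, with Ifng and the receptor chains in any case. The values of pathway genes and the counts per list without HDM replicate 3, and the marker sums without Lyz2, Tcf4 or S100a8 and S100a9, were also added after the data were seen.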

Additional observations from a re-analysis of the deposited data

Results flagged for a closer look

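In PBS replicate 2, Oasl2 had 71 CPM, against 55.4, 55.2 and 52.8 CPM in the other PBS libraries. It is listed because its gap to the nearest library took up more of the range of the group than a 95% limit allows. The PBS values of all 37 genes were examined in this way, and chance alone gives about 1 such gene in 20. Groups of 3 libraries are too small for this rule, so that the HDM libraries were not examined by it.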

How the results depend on the processing

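For HDM against PBS, the count of 11 higher genes was 5 to 13 when 1 library was left out, lowest without HDM replicate 3, and 6 at a change of at least 2-fold. The count of 2 lower genes was 1 to 2 when 1 library was left out, lowest without HDM replicate 2, and 1 at 2-fold. For HDM+Nafamostat against HDM, the count of 0 lower genes was 2 with DESeq2, 4 with no filter, 1 with edgeR's own filter, 1 in a joint fit of all groups and 0 to 1 when 1 library was left out. The count of 0 higher genes was 0 under every alternative run. For HDM+Nafamostat against PBS, the count of 4 higher genes was 1 in the joint fit, 0 at 2-fold and 0 to 5 when 1 library was left out, and the count of 1 lower gene was 2 with DESeq2, 2 with no filter, 0 at 2-fold and 1 whichever library was left out, where the gene was Rsad2 without HDM+Nafamostat replicate 2 and Ifit2 otherwise. Without HDM replicate 3, the changes of Dhx58 and Oas2 in HDM+Nafamostat over HDM lungs turned to 0.12 and 0.11, against -0.38 and -0.61 with all libraries, and with 1 library left out they ran from -0.60 to 0.12 for Dhx58 and from -1.09 to 0.11 for Oas2. The causes of these shifts were not tested. Of the alternative values of single genes, 22 in HDM against PBS and 23 in HDM+Nafamostat against PBS lost their call. In HDM+Nafamostat against HDM, 4 values of the genes called in HDM against PBS gained a call. Other gained calls, such as those of Ifi35 and Trim30a, are not in these counts. Most interferon genes did not reach the filter on low counts and were not tested.

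With the replicate number as a block, 10 genes were higher and 2 lower in HDM against PBS, 0 and 0 in HDM+Nafamostat against HDM, and 6 and 1 in HDM+Nafamostat against PBS. The correlations of same-numbered libraries ran from -0.179 to 0.117, HDM replicate 1 correlated more with HDM+Nafamostat replicate 3 than with its own number, and the samples share only a number.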
